A study of Mus musculus with 10 samples.

Results

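The Notch ligands, receptors and targets described here are 10 genes, 2 receptors (*Notch1*, *Notch4*), 4 ligands (*Dll4*, *Dll1*, *Jag1*, *Jag2*), 3 transcriptional targets (*Hey1*, *Hey2*, *Hes1*) and the regulator *Dtx1*, of 46517 genes in the count tables. They were chosen by name, with earlier results of these data known, and 50 other genes of the pathway serve as the comparison list. Shares and medians of the 10 genes beside those of all genes are therefore descriptions only. Each gene was measured by Smart-Seq2, which sequences along the whole cDNA of a cell and has no molecular barcodes, in single endothelial cells sorted from mouse ear skin by Podoplanin and CD31, with CD45, CD11b, Ter119 and dead cells gated out. The 5 mutant mice, labelled as having lymphatic malformations, carried Pik3caH1047R;Cdh5-CreERT2, a transgene that Cre switches on, and were Cre+. 4-OHT had been put on their ears at 3 wk and cells were taken at 5 wk. The Cdh5 promoter drives the Cre in endothelial cells of every kind, so blood and lymphatic vessels were both targeted. Control 1 was a separately bred, untreated C57BL/6J mouse. By the authors' account all mice had a C57BL/6J background. Control 2 was a Cre- littermate of the Pik3caH1047R;Cdh5-CreERT2 strain that had received 4-OHT at 3 wk, and both controls were 5 wk old. A further Cre- control was not analysed here. Each mouse gave 1 plate of 384 wells, and mutants 3 and 5 gave 2.

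The labels call the sorted cells LECs, whereas the authors' methods state that both LECs and BECs were sorted. The plates held them in similar number. Cells were classed from the reads of marker genes per 1000000 reads of the cell (CPM). A blood endothelial cell (BEC) had at least 300 CPM of *Flt1*, *Emcn* and *Podxl* together and more than of *Prox1*, *Flt4* and *Mmrn1*. A lymphatic endothelial cell (LEC) was the reverse. BECs with at least 50 CPM of *Gja5* were called arterial, and LECs with at least 300 CPM of *Cldn11* were called valve LECs. Of 724 control and 2524 mutant cells kept, 1490 were BECs (157 to 330 per mouse), 1641 LECs (175 to 367) and 117 neither. There were 116 arterial BECs (8 to 31 per mouse) and 231 valve LECs (19 to 57). Markers that the rules did not use fitted these names. Among arterial markers, *Sema3g* lay at 111 to 284 CPM in arterial BECs and at 6.65 to 33.2 CPM in other BECs of the 7 mice, and *Gja4* at 621 to 1234 and 45.2 to 166 CPM. *Bmx*, *Mgp* and *Efnb2*, 3 other arterial markers, were higher in arterial BECs in 6 of 7 mice each, with mutant 1 (*Bmx*, *Mgp*) or mutant 4 (*Efnb2*) as the exception. The arterial list of 8 genes also held *Sox17*, *Fbln5* and *Stmn2*, not given singly. It summed to 3110 to 5046 CPM in arterial and 845 to 1497 CPM in other BECs. In valve LECs *Neo1* lay at 139 to 294 CPM against 17.9 to 54.6 CPM in other LECs. The valve list of 6 genes that held *Neo1* differed less, at 2431 to 3176 CPM against 1251 to 1673 CPM. *Lyve1* was at 1228 to 2562 CPM in LECs and 25.3 to 138 CPM in BECs, and the LEC list of 4 genes that held it at 3210 to 4822 and 72.0 to 463 CPM.

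Reads were summed over all cells of a class in a mouse, and the mouse was the replicate. Sums held 38402388 to 99630824 reads in BECs, 1961497 to 10727912 in arterial BECs, 55616045 to 194353210 in LECs and 5906709 to 21490524 in valve LECs, so the arterial values are the least precise. The plates carry numbers of 2 series, the earlier numbers holding mutants 1 to 4 and the later ones the controls with mutant 5, so genotype and series cannot be told apart except through mutant 5. Markers of other cell types also moved with genotype. At least 300 CPM of keratinocyte, fibroblast, mural, immune or Schwann markers was found in 67.9% and 40.1% of control BECs against 18.5% to 27.6% of mutant BECs, and in 26.8% and 15.4% of control LECs against 6.52% to 13.2%. The fibroblast list summed to 790 and 575 CPM in control BECs and 12.8 to 43.4 CPM in mutant BECs, with 4 of its 5 genes higher in both controls than in every mutant. Mural markers summed to 910 and 502 CPM against 156 to 348 CPM, with 2 of 5 genes so. None of these genes was at 0 in all mice. *Ptprc*, which marks immune cells, did not pass 0.322 CPM in BECs or LECs.

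Notch signalling passes between touching cells. A ligand of the Delta or Jagged family on one cell binds a Notch receptor on its neighbour, the receptor is cut, and its inner part enters the nucleus and acts with the DNA-binding protein RBPJ to switch on genes of the Hes and Hey families. In blood vessels *Dll4*, *Notch1* and *Notch4* are known for their part in sprouting and in arterial identity, and in lymphatic vessels the pathway is known from valve formation and sprouting.

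The start regions of 4 of the genes are shown because *Dll4*, *Notch4* and *Dtx1* carry differences between cell classes described below and *Hey2* was the member with the letters TGGGAA, the core that RBPJ binds. Each run starts 250 bases before the gene's start and ends 30 bases into it (RefSeq, GRCm38.p6), 5′ to 3′ on the gene's own strand, and capitals mark TGGGAA on either strand. *Dll4* is shown from chr2:119325534-119325813 (plus strand), *Notch4* from chr17:34564045-34564324 (plus strand), *Dtx1* from chr5:120711640-120711919 (minus strand) and *Hey2* from chr10:30842754-30843033 (minus strand).
Dll4: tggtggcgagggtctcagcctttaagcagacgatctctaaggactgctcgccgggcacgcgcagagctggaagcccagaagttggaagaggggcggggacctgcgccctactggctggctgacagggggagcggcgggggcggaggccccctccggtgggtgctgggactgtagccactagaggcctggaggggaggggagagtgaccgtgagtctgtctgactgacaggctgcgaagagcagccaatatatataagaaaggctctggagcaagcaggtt
Notch4: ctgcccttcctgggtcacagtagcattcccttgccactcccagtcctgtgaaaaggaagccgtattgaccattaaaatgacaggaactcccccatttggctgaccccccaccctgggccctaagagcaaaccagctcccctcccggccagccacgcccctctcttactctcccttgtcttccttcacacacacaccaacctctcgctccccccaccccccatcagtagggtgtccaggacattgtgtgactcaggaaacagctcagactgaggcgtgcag
Dtx1: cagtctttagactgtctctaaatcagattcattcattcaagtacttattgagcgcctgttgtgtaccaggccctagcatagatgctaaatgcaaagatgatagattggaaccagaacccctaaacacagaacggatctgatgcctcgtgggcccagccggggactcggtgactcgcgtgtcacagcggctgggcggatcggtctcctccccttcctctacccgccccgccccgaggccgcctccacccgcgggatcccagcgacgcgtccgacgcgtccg
Hey2: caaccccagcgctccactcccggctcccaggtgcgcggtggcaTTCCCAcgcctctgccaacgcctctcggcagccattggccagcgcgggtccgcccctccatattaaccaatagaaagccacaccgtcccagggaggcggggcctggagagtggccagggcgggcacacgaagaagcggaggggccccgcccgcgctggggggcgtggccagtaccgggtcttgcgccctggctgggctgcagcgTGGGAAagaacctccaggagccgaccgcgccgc
RefSeq start regions were found for 8 of the 10 genes (9 regions of 300 bases), and *Hey1* and *Hes1* are named only. TGGGAA or its complement was in 1 of the 9 regions, that of *Hey2*, at 207 bases (reverse strand) and 3 bases (forward strand) before the start. Of all 32851 start regions of that length, 25.6% held it. Guanine and cytosine made up 72% of the *Hey2* region, 63.7% of that of *Dll4*, 59.3% of that of *Dtx1* and 58.3% of that of *Notch4*, against a median of 52.7% over all regions.

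**Figure D1:**
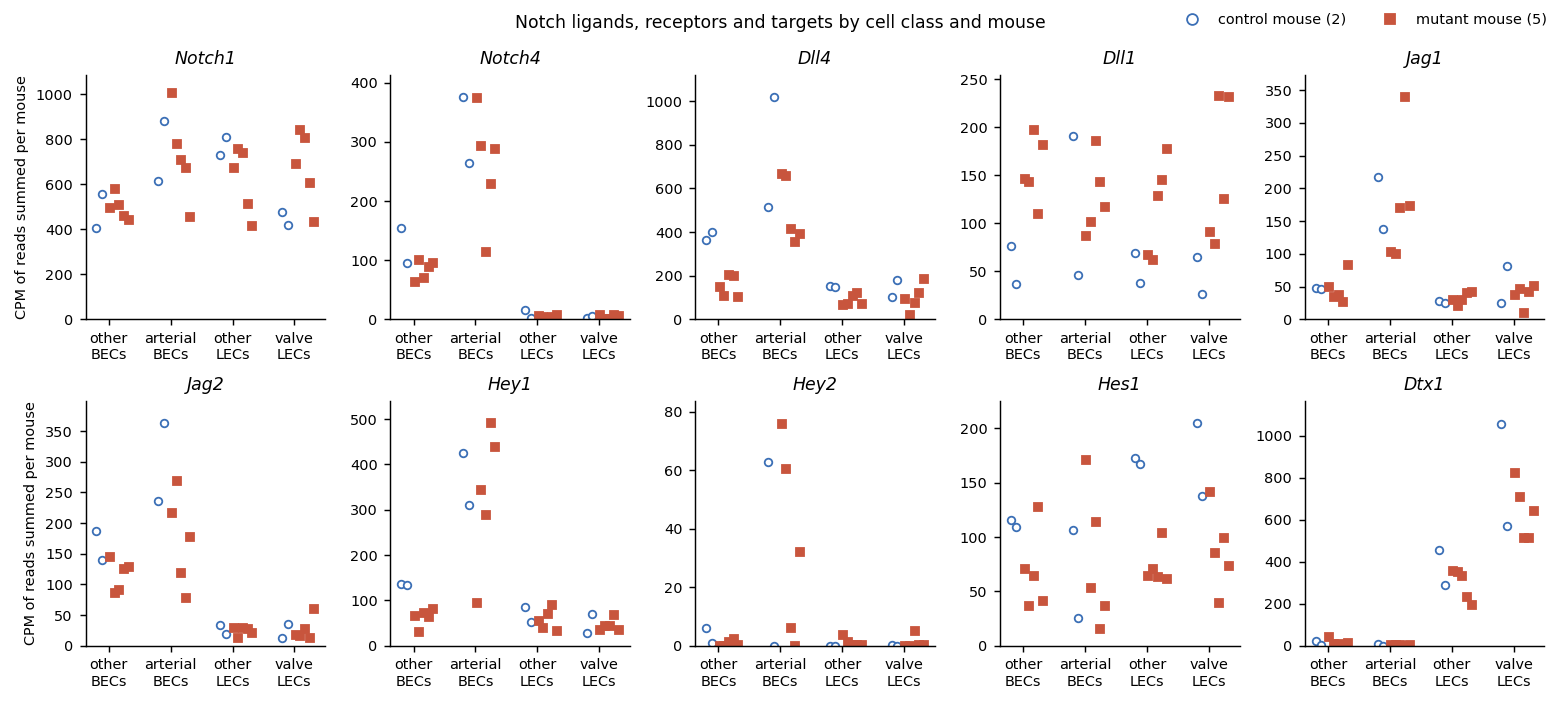
CPM of the 10 genes in reads summed per mouse (y axis, linear) in 4 cell classes (x axis); open circles are the 2 control mice and filled squares the 5 mutant mice. *Dll4*, *Hey1*, *Jag1* and *Notch4* sit highest in arterial BECs, *Dtx1* in valve LECs, and *Notch4* and *Jag2* stay low in both LEC classes.

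Which of these genes each vessel type used was asked first, by comparing LECs with BECs of the same 7 mice. Levels of different genes are compared per kilobase of exon (CPM per kilobase, with the exon lengths of the files). In BECs *Dll4* led at 63.7 ± 34.0 (SD, n = 7 mice), followed by *Hes1* at 39.0 ± 16.6, *Notch1* at 35.8 ± 4.61, *Jag2* at 33.6 ± 9.13, *Hey1* at 31.9 ± 14.3 and *Dll1* at 30.4 ± 12.6, then *Notch4* at 13.6 ± 4.47 and *Jag1* at 9.72 ± 3.23. Neighbours in this order did not differ beyond their spreads up to there, and *Dtx1* at 2.51 ± 2.51 and *Hey2* at 1.59 ± 1.66 lay below. In LECs the order began with *Dtx1* at 69.8 ± 20.01, *Hes1* at 50.5 ± 23.9 and *Notch1* at 46.2 ± 9.68, whose spreads overlapped. *Dll4* (27.2 ± 9.02), *Dll1* (24.2 ± 13.03) and *Hey1* (17.7 ± 6.08) formed a middle group, *Jag2* (5.96 ± 1.39) and *Jag1* (5.49 ± 1.22) a lower pair, and *Notch4* (0.731 ± 0.533) and *Hey2* (0.305 ± 0.397) came last.

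Of the 10 genes, 7 differed between LECs and BECs in edgeR's quasi-likelihood test with mouse as a block, 2 higher and 5 lower in LECs, at a Benjamini-Hochberg adjusted p under 0.05 over all genes tested. All genes tested were called in 26.4% of cases. The median log2 fold change was -0.81 over the 10 genes and 0.02 over all genes.

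The receptors went in opposite directions. *Notch4*, an endothelial receptor of the family (GRCm38 chromosome 17, 34564268 to 34588503), ranged from 72.2 to 182 CPM in BECs with a median of 110, and from 2.48 to 14.9 CPM in LECs with a median of 4.95. The classes did not overlap in any mouse, and the log2 fold change was -4.43 (SE 0.26), which is 21.5-fold lower in LECs (edgeR adjusted p = 5.01e-06). After each cell was thinned to 50000 reads, 22.4% to 39.6% of BECs and 2.72% to 14.8% of LECs of a mouse had a *Notch4* read. *Notch1*, the receptor that nearly all of these cells carried (chromosome 2, 26457903 to 26516663), had a read in 83.9% to 92.9% of thinned BECs and 91.2% to 97.5% of thinned LECs. It ranged from 432 to 593 CPM (median 518) in BECs and from 415 to 773 CPM (median 700) in LECs and was higher in LECs in 6 of 7 mice, by 0.33 on the log2 scale (SE 0.10, edgeR adjusted p = 0.0309). That call was lost in 10 of 15 alternatives, among them leaving out either control or mutant 1, 2 or 3 (edgeR adjusted p = 0.0832 to 0.0890). Among *Notch1* exon bases, 9.76% are also exon of 2 transcripts on the opposite strand, whose reads cannot be told apart here.

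All 4 ligands had lower mean levels in LECs and 3 of them passed the test. *Jag2* (chromosome 12, 112907819 to 112929776) ranged from 92.3 to 194 CPM in BECs with a median of 134 and from 13.6 to 30.5 CPM in LECs with a median of 25.2. It was lower in LECs in 7 of 7 mice, by 2.50 on the log2 scale (SE 0.16), or 5.66-fold (edgeR adjusted p = 7.79e-06). *Dll4* (chromosome 2, 119325784 to 119335962) ranged from 131 to 473 CPM in BECs with a median of 207 and from 64.6 to 149 CPM in LECs with a median of 101, and was also lower in LECs in all 7 mice, with a log2 fold change of -1.15 (SE 0.12, edgeR adjusted p = 0.000134). *Jag1* (chromosome 2, 137081456 to 137116644) lay at 37.9 to 92.2 CPM in BECs and 23.9 to 42.5 CPM in LECs, lower in 7 of 7 mice by 0.81 (SE 0.15, edgeR adjusted p = 0.00396). *Dll1* (chromosome 17, 15367354 to 15376872) had a log2 fold change of -0.38 (SE 0.19, edgeR adjusted p = 0.179) and was lower in 5 of 7 mice.

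Among the targets and the regulator, *Dtx1* stood apart. It encodes a Deltex E3 ubiquitin ligase that binds the inner part of Notch receptors, on chromosome 5 (120680202 to 120711927). *Dtx1* ranged from 240 to 532 CPM in LECs, with a median of 364, and from 0.686 to 39.1 CPM in BECs, with a median of 9.10. Every LEC value was over every BEC value, with a log2 fold change of 5.44 (SE 0.61, edgeR adjusted p = 0.000178). Of thinned LECs, 61.0% to 84.2% had a *Dtx1* read, at 21.5 to 31.1 reads per such cell in the 7 mice. Of thinned BECs 2.87% to 35.2% did, at 1.2 to 4.67 reads. *Hey1*, a transcriptional repressor of the Hey family (chromosome 3, 8663359 to 8667256), was lower in LECs in 6 of 7 mice by 0.81 on the log2 scale (SE 0.24, edgeR adjusted p = 0.0341). The *Hey1* call was lost on leaving out either control or mutant 1, 3 or 5 (edgeR adjusted p = 0.0514 to 0.0739). *Hes1*, another repressor (chromosome 16, 30064384 to 30067796), had a log2 fold change of 0.36 (SE 0.16, edgeR adjusted p = 0.143). *Hey2* (chromosome 10, 30832359 to 30842801) ranged from 0.951 to 13.4 CPM in BECs and from 0 to 2.85 CPM in LECs (log2 fold change -3.21, SE 1.11, edgeR adjusted p = 0.0637), with a read in 1 to 20 BECs and 0 to 9 LECs of a mouse. Without the cells that held markers of other cell types, an alternative chosen after the data were seen, *Notch4*, *Jag2*, *Dll4* and *Dtx1* were still called and *Notch1*, *Jag1* and *Hey1* were not.

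Of the 50 other pathway genes, 46 could be tested, and 9 were higher and 9 lower in LECs, where 26.4% of all genes tested were called. The counts of small groups below stand beside that share. Of the 9 genes of receptor cleavage, 5 were higher in LECs and none lower, among them the gamma-secretase subunits *Aph1b* (39.5 to 135 CPM in LECs and 0.293 to 23.7 CPM in BECs, log2 fold change 2.88) and *Aph1c* (4.50 to 13.1 CPM and 0.531 to 2.16 CPM, log2 fold change 2.93). The receptor *Notch2* was higher in LECs, at 19.2 to 78.6 CPM against 0.900 to 22.6 CPM. *Mfng*, a Fringe sugar transferase that modifies Notch receptors, ran the other way, at 145 to 203 CPM in BECs and 0.637 to 7.51 CPM in LECs (log2 fold change -5.85, SE 0.45). It was 1 of 3 genes of the 5 sugar transferases that were lower. *Nrarp*, a feedback inhibitor of the pathway, was also lower in LECs, at 5.69 to 20.5 CPM against 30.5 to 97.6 CPM in BECs. Of the 2 *Neurl1* genes, which encode ubiquitin ligases that act on ligands, *Neurl1a* was higher in LECs (0.0980 to 15.8 CPM against 0 to 2.75 CPM in BECs) and *Neurl1b* lower (0.608 to 14.8 CPM against 29.5 to 67.1 CPM). *Dtx4*, a relative of *Dtx1*, reached 0.133 CPM at most in LECs and 0.891 to 10.3 CPM in BECs.

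Arterial BECs were compared with the other BECs of the same mice to see which members marked arteries. In arterial BECs 5 of the 10 genes were higher and none lower, *Notch4*, *Dll4*, *Hey1*, *Jag1* and *Notch1*, while 2.34% of all genes tested were called. The median log2 fold change was 1.2 over the 10 genes and -0.44 over all genes, so the values of single genes stand against the latter. Each of the 5 was higher in 7 of 7 mice. Arterial BECs were chosen by *Gja5* alone.

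*Hey1* showed a log2 fold change of 2.20 (SE 0.34, edgeR adjusted p = 0.0100). It lay at 425 and 311 CPM in arterial BECs of the controls and 93.3, 342, 288, 491 and 438 CPM in those of mutants 1 to 5, against 136 and 135 CPM and 66.1, 30.3, 72.4, 64.0 and 80.3 CPM in the other BECs. Arterial values lay over the other BECs of the same mouse throughout, although mutant 1 stood low. *Jag1*, the ligand with the lowest level in other BECs, rose by 2.03 (SE 0.35, edgeR adjusted p = 0.0167), from 26.6 to 82.5 CPM with a median of 46.2 to 99.9 to 340 CPM with a median of 170. The *Jag1* call was lost without mutant 3 (edgeR adjusted p = 0.0528), without cells that held markers of other cell types, and with other *Gja5* limits. *Notch4* rose by 1.67 (SE 0.23, edgeR adjusted p = 0.00597), from 63.4 to 154 CPM (median 94.6) to 113 to 375 CPM (median 288). It was the only member called in all 17 alternatives of this comparison, 1 of which lowered the *Gja5* limit to 20 CPM and left *Notch4* alone. *Dll4* rose by 1.65 (SE 0.24, edgeR adjusted p = 0.00836), from 105 to 401 CPM (median 199) to 353 to 1018 CPM (median 513). Per kilobase *Dll4* (149 ± 60.3) and *Hey1* (105 ± 40.3) led in arterial BECs and did not differ beyond their spread.

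*Notch1* rose by 0.71 (SE 0.13, edgeR adjusted p = 0.0209), from 406 to 580 CPM (median 496) to 453 to 1005 CPM (median 707). Without control 1, control 2, mutant 3 or mutant 4 the *Notch1* call was lost (edgeR adjusted p = 0.0548 to 0.0645). *Jag2* was higher in 6 of 7 mice with a log2 fold change of 0.75 (SE 0.26, edgeR adjusted p = 0.174). The values of *Dll1* (0.17, SE 0.29) and *Hes1* (-0.15, SE 0.54) lay within 1 SE of 0. *Hey2* was found in few cells, with 367 reads in 4 of the 22 arterial BECs of control 1 and 0 reads in those of control 2 and mutant 4, where 3 reads would be 0.622 and 0.938 CPM. The arterial levels of *Hey2* in mutants 1, 2, 3 and 5 were 76.0, 60.4, 5.88 and 32.1 CPM, and in 6 of the 7 mice other BECs had at most 2.25 CPM. 1 cell held 76.3% to 96.6% of its arterial reads in each mouse that had any, and its log2 fold change of 4.22 (SE 2.69) did not pass the test (edgeR adjusted p = 0.480). *Dtx1* was lower in arterial BECs in 7 of 7 mice, with 0.6251 to 9.75 CPM against 0.689 to 40.9 CPM, and also did not pass (log2 fold change -1.75, SE 0.71, edgeR adjusted p = 0.250). Of the other pathway genes 44 could be tested and none was called by edgeR, with 6 at an unadjusted p under 0.05. Over all genes, 2397 of 14558 tested had an unadjusted p under 0.05.

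Valve LECs differed from the other LECs in 1 member of 9 tested, *Dtx1*, with 1.44% of all genes called. *Dtx1* lay at 1057 and 572 CPM in valve LECs of the controls and at 823, 705, 511, 512 and 641 CPM in those of mutants 1 to 5. In the other LECs it lay at 457 and 289 CPM and at 355, 349, 332, 233 and 194 CPM. The lowest valve value was over the highest value of the other LECs. The mean was 689 ± 197 CPM (SD, n = 7) in valve LECs and 315 ± 87.0 CPM in other LECs, with a log2 fold change of 1.21 (SE 0.12, edgeR adjusted p = 0.00158), and the call held in all 17 alternatives. Per kilobase *Dtx1* reached 131 ± 37.4 in valve LECs, ahead of *Hes1* at 54.9 ± 26.7 and *Notch1* at 42.9 ± 12.2. The other 8 members tested had log2 fold changes of -0.68 to 0.35 (edgeR adjusted p = 0.565 to 0.996). *Hey2* was not tested. Of the 43 other pathway genes tested, *Hes6*, a Hes family gene that is not a classical Notch target, was higher in valve LECs (59.2 to 158 CPM against 18.7 to 52.8 CPM, log2 fold change 1.55, SE 0.27, edgeR adjusted p = 0.0228).

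**Figure D2:**
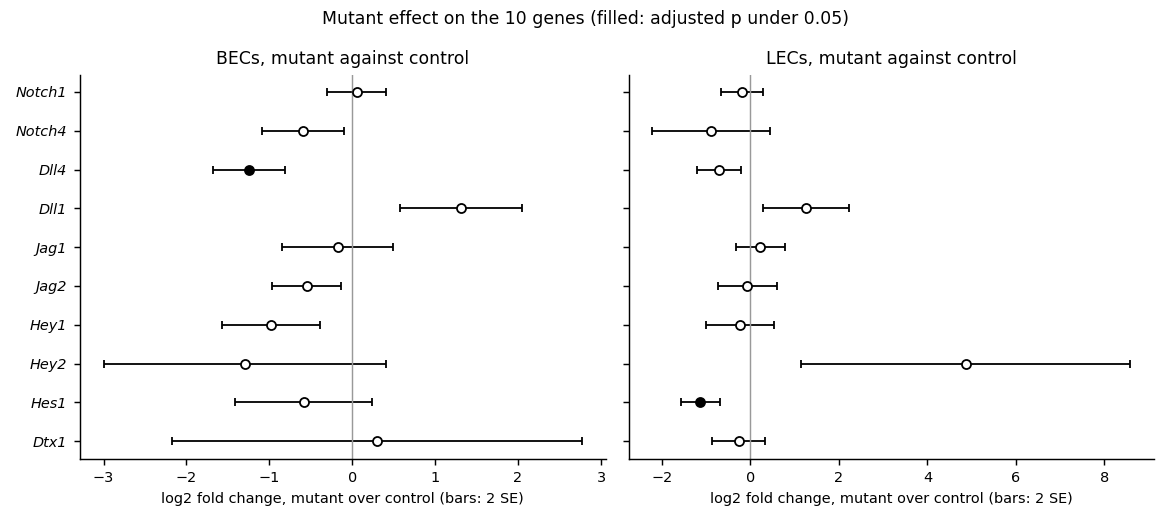
Log2 fold change of mutant over control (x axis) for the 10 genes (y axis) in BECs and in LECs, from edgeR fits over 5 mutant and 2 control mice; bars are 2 SE either side and filled points have an adjusted p under 0.05. In BECs only *Dll4* (-1.24) is filled and in LECs only *Hes1* (-1.13).

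The effect of the Pik3caH1047R mutation on these genes was then compared within each cell class. In BECs of mutant mice *Dll4* was lower, and no other member passed the test, while 2.12% of all genes tested were called. *Dll4* lay at 381 and 473 CPM in the controls and 175, 131, 215, 207 and 136 CPM in mutants 1 to 5. The highest mutant was under the lower control. The means were 427 ± 65.5 CPM (SD, n = 2) and 173 ± 38.9 CPM (n = 5), with a log2 fold change of -1.24 (SE 0.22), or 2.37-fold lower (edgeR adjusted p = 0.0306). The *Dll4* call was lost on leaving out control 1, control 2, mutant 1 or mutant 2 (edgeR adjusted p = 0.0613, 0.134, 0.0725 and 0.0647), and with plate series as a block (log2 fold change -1.63, edgeR adjusted p = 0.127). Its sign was the same in all 20 alternatives, at -1.63 to -0.38. Within the plate series of the controls, mutant 5 stood at 136 CPM. The 2 plates of mutant 3 gave 159 and 287 CPM and those of mutant 5 gave 141 and 129 CPM. Without the cells that held markers of other cell types, *Dll4* had a log2 fold change of -1.60 (edgeR adjusted p = 0.0253). Of *Dll4* exon bases, 5.56% are shared with a transcript on the opposite strand.

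The other ligands did not move together in BECs. *Dll1*, a second Delta ligand, was at 91.2 and 37.7 CPM in the controls and 143, 141, 197, 112 and 174 CPM in the mutants, with every mutant over both controls and a log2 fold change of 1.31 (SE 0.37, edgeR adjusted p = 0.112). DESeq2 called *Dll1* (adjusted p = 0.00337), as did edgeR without control 1 (adjusted p = 0.0433). Exons of a long noncoding RNA on the opposite strand cover 20.55% of the *Dll1* exon bases, so part of its reads may belong to either. *Jag2* was at 194 and 166 CPM in the controls and 148, 94.2, 92.3, 123 and 134 CPM in the mutants, which did not overlap (log2 fold change -0.55, SE 0.21, edgeR adjusted p = 0.201). *Jag1* values overlapped, at 69.6 and 56.9 CPM against 37.9 to 92.2 CPM (log2 fold change -0.18, SE 0.33).

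Among targets, *Hey1* lay at 173 and 155 CPM in control BECs and 67.5, 44.9, 85.2, 85.3 and 119 CPM in mutant BECs. These groups did not overlap, and the log2 fold change was -0.98 (SE 0.30, edgeR adjusted p = 0.131, DESeq2 adjusted p = 0.0204). *Hes1* lay at 114 and 99.4 CPM against 75.6, 37.6, 66.8, 122 and 40.7 CPM, with mutant 4 over both controls (log2 fold change -0.59, SE 0.41, edgeR adjusted p = 0.460). For *Hey2* the log2 fold change was -1.29 (SE 0.85) on 0.951 to 13.4 CPM. The receptor *Notch1* was at 432 and 593 CPM against 441 to 589 CPM, a log2 difference of 0.05 with a 2-SE interval of -0.30 to 0.40. *Notch4* was at 182 and 115 CPM against 72.2 to 115 CPM (log2 fold change -0.60, SE 0.25, edgeR adjusted p = 0.231). *Dtx1* ranged from 0.686 to 39.1 CPM in BECs, with both extremes in mutants. In all, 4 of the 10 genes did not overlap between the groups (3 lower and 1 higher in mutants), where 25.0% of all genes tested did not. The median log2 fold change was -0.57 over the 10 genes and 0.01 over all genes. An unadjusted p under 0.05 was found for 5 of the 10, against 3793 of all 19315 genes tested.

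Fewer cells with the gene or less RNA per cell can both lower a sum, so cells were also counted after thinning to 50000 reads. *Dll4* had a read in 68.6% (95% Wilson interval 61.0 to 75.3) and 65.0% (57.2 to 72.0) of control BECs, and in 48.1%, 27.7%, 40.3%, 42.0% and 33.0% of BECs of mutants 1 to 5. The highest mutant share lay under both controls. Cells with a *Dll4* read held 26.7 and 32.5 reads on average in controls and 23.6, 30.6, 31.0, 33.1 and 23.3 in mutants, which overlapped. *Hey1* was found in 43.4% and 32.5% of control BECs and 14.1% to 25.7% of mutant BECs. *Dll1* was found in 24.5% and 20.4% of control and 31.6% to 48.2% of mutant BECs. Intervals cover counting error only, since reads without molecular barcodes are not independent molecules. Median depth before thinning was 263897 reads in control and 256823 in mutant BECs.

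**Figure D3:**
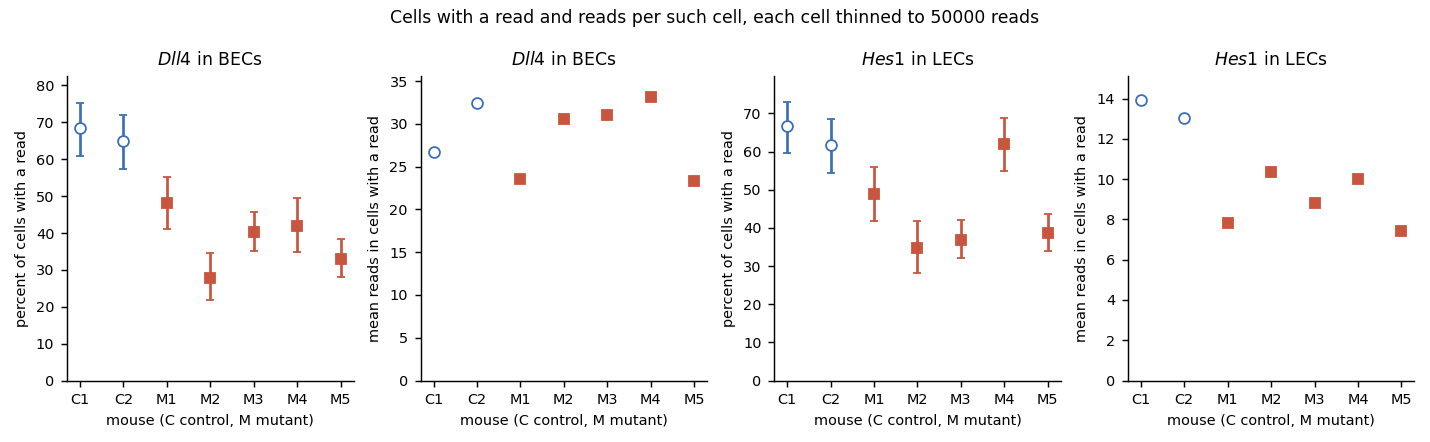
Percent of cells with a read (95% Wilson intervals) and mean reads in those cells, after thinning to 50000 reads, for *Dll4* in BECs and *Hes1* in LECs; x axis, 2 control (C) and 5 mutant (M) mice. *Dll4* shares fall from 65.0–68.6% to 27.7–48.1% while reads per positive cell overlap. For *Hes1* the reads per positive cell are 13.03 and 14.0 in controls and 7.45–10.3 in mutants.

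The balance of capillary and venous markers in the BECs differed between the genotypes and is given beside the *Dll4* result. BECs outside the arterial class were split by markers into those with at least 300 CPM of capillary genes (*Rgcc*, *Gpihbp1*, *Cd36*, *Car4*) and more than of venous genes (*Nr2f2*, *Aplnr*, *Ackr1*, *Ephb4*, *Selp*), and the reverse, a split made after the data were seen. The capillary list led in 66.0% and 74.5% of control BECs and in 28.4%, 38.0%, 35.5%, 48.3% and 49.5% of mutant BECs. The venous list led in 17.6% and 13.4% of control BECs and in 63.9%, 56.5%, 57.0%, 43.1% and 38.6% of mutant BECs. Neither pair of groups overlapped, and each gave an exact two-sided permutation p of 0.0952, the smallest that 5 and 2 mice allow. In each of the 7 mice *Dll4* (339 ± 93.1 and 93.2 ± 87.9 CPM, SD), *Hey1* (154 ± 46.3 and 16.4 ± 15.7 CPM), *Notch4* (159 ± 46.8 and 30.9 ± 19.4 CPM) and *Jag2* (166 ± 64.1 and 103 ± 24.2 CPM) were higher in the capillary-led than in the venous-led BECs. *Dll1* was lower in all 7 (81.6 ± 43.7 and 173 ± 69.8 CPM). In the BECs as a whole, mutant values of *Dll4*, *Hey1* and *Jag2* lay under both controls and those of *Dll1* over both. *Notch4*, also higher in capillary-led cells, had overlapping genotypes there. Whether these directions are linked to the marker lists was not tested for any member.

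Within the capillary-led BECs alone, *Dll4* lay at 378 and 453 CPM in controls and 356, 237, 398, 361 and 188 CPM in mutants, which overlapped (log2 fold change -0.38, edgeR adjusted p = 0.712). *Hey1* lay at 173 and 153 CPM against 216, 75.6, 196, 136 and 132 CPM (log2 fold change -0.06, edgeR adjusted p = 0.974). In the venous-led BECs *Dll4* lay at 282 and 81.2 CPM in controls, which had 28 and 21 such cells, and 75.5, 30.9, 99.5, 64.9 and 18.7 CPM in mutants (log2 fold change -1.63, edgeR adjusted p = 0.173). Of these control cells, 7 and 8 were without 300 CPM of other cells' markers. The fibroblast list summed to 182 and 2334 CPM in the venous-led BECs of controls and 6.19 to 69.1 CPM in those of mutants. The venous list itself moved with genotype in capillary-led BECs, at 1229 and 1094 CPM in controls and 1283 to 1738 CPM in mutants. A change of marker levels within cells and a change in kinds of cell cannot be told apart here. Whether either accounts for the lower *Dll4* sum was not tested.

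**Figure D4:**
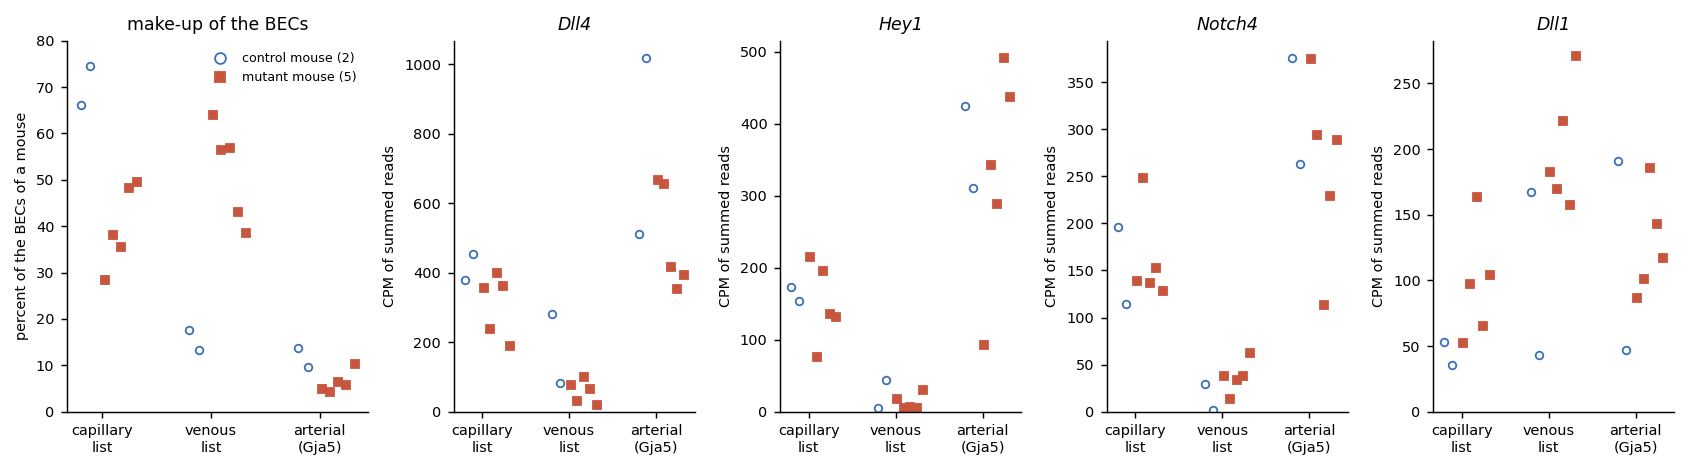
Left, percent of the BECs of each mouse led by the capillary list, by the venous list, or arterial; right, CPM of *Dll4*, *Hey1*, *Notch4* and *Dll1* (y axes, linear) in these cells; open circles are 2 control mice and squares 5 mutant mice. Control BECs are 66.0–74.5% capillary-led and mutant BECs 28.4–49.5%, while *Dll4* and *Hey1* values of the genotypes overlap within each of these groups.

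Arterial BECs made up 13.8% and 9.55% of control BECs and 4.92%, 4.35%, 6.36%, 5.75% and 10.2% of mutant BECs (exact two-sided permutation p = 0.190). Within them edgeR called none of the 10 genes between the genotypes, none was at an unadjusted p under 0.05, and none had groups that did not overlap, where 11.2% of all genes tested did not. Of all 12831 genes tested, edgeR called 0.00%, with 641 at an unadjusted p under 0.05, and DESeq2 called 224 genes. *Dll4* lay at 513 and 1018 CPM in the controls and 668, 655, 416, 353 and 393 CPM in the mutants, a log2 fold change of -0.62 with a 2-SE interval of -1.35 to 0.11. The intervals were -1.196 to 0.89 for *Hey1*, -0.70 to 0.62 for *Notch1* and -1.199 to 0.61 for *Notch4*. Each of these 4 intervals held the log2 fold change of the same gene in all BECs. Mural markers summed to 2593 CPM in the 9 arterial BECs of mutant 1 and 150 to 860 CPM in the other mice. The test of whether the mutant effect differed between arterial and other BECs called none of the 10 genes, with none at an unadjusted p under 0.05, and 0.0106% of all genes. For *Dll4* that difference was 0.79 (SE 0.49, edgeR adjusted p = 1). Without the arterial cells the effect on *Dll4* in BECs was -1.27 (edgeR adjusted p = 0.0548).

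In LECs of mutant mice *Hes1* was the only member to pass the test, and 2.76% of all genes tested were called. *Hes1* lay at 177 and 164 CPM in the controls and 81.9, 72.3, 59.1, 103 and 62.4 CPM in mutants 1 to 5, with every mutant under both controls. The means were 171 ± 9.08 CPM (SD, n = 2) and 75.8 ± 17.8 CPM (n = 5), a log2 fold change of -1.13 (SE 0.22), or 2.18-fold lower (edgeR adjusted p = 0.0383). The *Hes1* call was lost without control 1, control 2 or mutant 1, 2, 3 or 5 (edgeR adjusted p = 0.126, 0.0753, 0.0695, 0.0823, 0.0843 and 0.0533), with plate series as a block (log2 fold change -1.42, edgeR adjusted p = 0.142) and without cycling cells (log2 fold change -1.03, edgeR adjusted p = 0.0931). Its sign was the same in all 18 alternatives, at -1.42 to -0.9989. LEC markers also moved with genotype. The LEC list summed to 4822 and 4721 CPM in control and 3210 to 4179 CPM in mutant LECs, with 2 of its 4 genes higher in both controls than in every mutant. The LEC sum of the class rule was 6026 and 5273 CPM against 3381 to 5006 CPM. A change of these levels within cells and a change in kinds of LEC cannot be told apart here, and their part in the lower *Hes1* sum was not tested. Markers of other cells moved with genotype in LECs too. The fibroblast list summed to 382 and 193 CPM in control and 15.8 to 106 CPM in mutant LECs, with 4 of its 5 genes higher in both controls than in every mutant. The mural list summed to 133 and 98.1 CPM against 35.9 to 64.6 CPM (3 of 5 genes so), and the Schwann list to 68.4 and 18.1 CPM against 0.270 to 11.1 CPM (2 of 3). Capillary BEC markers summed to 465 and 486 CPM against 115 to 165 CPM (3 of 4), while the general BEC markers ran the other way, at 809 and 580 CPM against 1064 to 1231 CPM, with 1 of 4 genes lower in both controls than in every mutant. None of these genes was at 0 in all mice. The *Hes1* call held on leaving out cells with keratinocyte, fibroblast, mural, immune or Schwann markers, a filter that did not use BEC markers. It was lost without cells over 300 CPM of both the BEC and the LEC sums of the class rule, which left 593 of 1641 LECs. The part of these markers in the *Hes1* result was not tested further. Within the plate series of the controls, mutant 5 stood at 62.4 CPM. The 2 plates of mutant 3 gave 61.8 and 56.0 CPM and those of mutant 5 gave 63.6 and 61.2 CPM.

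After thinning, *Hes1* had a read in 66.7% and 61.7% of control LECs and in 48.9%, 34.8%, 36.9%, 62.1% and 38.7% of mutant LECs, so mutant 4 lay between the controls. Cells with a *Hes1* read held 14.0 and 13.03 reads in controls and 7.82, 10.3, 8.83, 10.0 and 7.45 in mutants, each under both controls. Median depth before thinning was 303207 reads in control and 348667 in mutant LECs. Reads of at least 3 of 7 cycling genes were found in 1.09% and 2.29% of control LECs and 12.1% to 29.9% of mutant LECs. Without the cells that held markers of other cell types, *Hes1* had a log2 fold change of -1.06 (edgeR adjusted p = 0.0476). In valve LECs *Hes1* lay at 205 and 138 CPM in controls and 141, 85.8, 39.6, 99.4 and 73.4 CPM in mutants, with mutant 1 over control 2.

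The ligands of LECs showed 1 lower and 1 higher value without passing the test. *Dll4* lay at 146 and 149 CPM in controls and 70.2, 64.6, 101, 119 and 82.4 CPM in mutants, which did not overlap (log2 fold change -0.70, SE 0.25, edgeR adjusted p = 0.167). *Dll1* lay at 68.3 and 36.4 CPM against 72.2, 64.2, 147, 143 and 184 CPM, where mutant 2 lay under control 1 (log2 fold change 1.26, SE 0.49, edgeR adjusted p = 0.201, DESeq2 adjusted p = 0.0389). *Jag1* (0.23, SE 0.28) and *Jag2* (-0.06, SE 0.33) had log2 fold changes within 1 SE of 0. Both receptors were uncalled, *Notch1* at -0.18 (SE 0.23) and *Notch4* at -0.89 (SE 0.66, on 2.48 to 14.9 CPM). *Hey1* stood at 77.5 and 54.1 CPM against 32.3 to 86.7 CPM. *Dtx1* stood at 532 and 316 CPM against 240 to 462 CPM, with a log2 fold change of -0.26 and a 2-SE interval of -0.85 to 0.33. For *Hey2* there were 4 and 0 reads in the controls and 184, 59, 121, 6 and 70 in the mutants, in 25 of the 1283 mutant LECs (log2 fold change 4.87, SE 1.86, edgeR adjusted p = 0.197). A single cell held 79.9%, 76.3%, 91.7% and 68.6% of the *Hey2* reads in LECs of mutants 1, 2, 3 and 5. Between the groups 3 of the 10 genes did not overlap (2 lower and 1 higher), where 25.2% of all genes tested did not. An unadjusted p under 0.05 was found for 4 of the 10, against 3963 of all 19758 genes tested. The median log2 fold change was -0.21 over the 10 genes and -0.01 over all genes.

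Valve LECs made up 12.6% and 10.9% of control and 22.3%, 14.4%, 15.7%, 13.2% and 10.9% of mutant LECs (exact two-sided permutation p = 0.190). In them edgeR called 0 of 9 members between the genotypes, with 2 at an unadjusted p under 0.05 (*Dll1* and *Hes1*), and 0.00% of all 13948 genes tested, with 1760 at an unadjusted p under 0.05 and 915 called by DESeq2. *Dll1* was the 1 of 10 genes whose groups did not overlap, at 65.5 and 26.9 CPM against 90.6, 78.3, 233, 125 and 232 CPM (log2 fold change 1.64, SE 0.59, edgeR adjusted p = 0.340). Of all genes tested, 17.6% did not overlap.

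Whether the mutant effect differed between BECs and LECs was tested with edgeR's interaction term. It called none of the 10 genes, with 2 at an unadjusted p under 0.05, and 0.191% of all genes. Over all genes, 2528 of 21933 tested had an unadjusted p under 0.05. For *Dll4* the effect in BECs minus that in LECs was -0.50 on the log2 scale (SE 0.21, unadjusted p = 0.0492, edgeR adjusted p = 0.433), for *Hes1* 0.47 (SE 0.34, edgeR adjusted p = 0.693) and for *Dll1* 0.23 (SE 0.43, edgeR adjusted p = 0.930). *Hey2* had the lowest unadjusted p, 0.00577 (edgeR adjusted p = 0.207), on few reads.

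Of the rest of the pathway, 1 gene each was called between the genotypes in BECs and LECs, a share near the 2.12% and 2.76% of all genes tested. A further count, at an unadjusted p under 0.05, was 11 of 48 genes in BECs and 10 of 45 in LECs. Over all genes tested it was 3793 of 19315 in BECs and 3963 of 19758 in LECs. In BECs 1 of 48 tested genes was called, *Hes5*, a Hes family target, with 238 and 102 reads in 7 control cells and 0 reads in all mutants, which allows up to 0.00883 CPM over the group. A single cell held 98.3% of the *Hes5* reads in control 1 and 98.0% in control 2. In LECs 1 of 45 was called, *Neurl1b*, at 0.608 and 2.27 CPM in controls and 12.1, 14.8, 11.2, 14.1 and 8.83 CPM in mutants, with every mutant over both controls (log2 fold change 3.16, SE 0.60, edgeR adjusted p = 0.0355). Reads of *Neurl1b* came from 46 of 358 control LECs and 223 of 1283 mutant LECs. The cell with the most held 5.88% and 46.8% of them in the controls and 13.3% to 33.9% in the mutants. The cleavage enzymes, sugar transferases, nuclear complex and corepressors held no called gene in either class. In arterial BECs none of 45 and in valve LECs none of 41 tested genes was called by edgeR, with 1 and 5 at an unadjusted p under 0.05. Over all genes tested that count was 641 of 12831 and 1760 of 13948.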

How the data were processed

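Sorted ear-skin endothelial cells of 5 mutant and 2 control mice (7 and 2 plates) were analysed. The deposited tables give unnormalised read counts for each gene in each well, which the authors made by aligning reads to GRCm38 and a chicken PIK3CA sequence with TopHat2 2.1.1, removing duplicates with SAMtools 0.1.18 and counting with featureCounts. The annotation version is not given in the sources used here, and whether counting used strand is not stated. The exon length in bases beside each gene (another deposited column) was used only for values per kilobase. Symbols and positions came from GENCODE vM21, and 46005 of 46517 genes were matched.

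A well was kept with 200 or more genes and 50000 or more reads, of which no more than 10% were mitochondrial. Plates held 99738886 to 151102969 reads. Doublets were not called, and 34.4% to 41.9% of the cells of a mouse passed 300 CPM of both marker sums. Most were LECs. Without them 593 of 1641 LECs and 85 of 231 valve LECs were left, against 1337 of 1490 BECs. The BEC marker sum of the class rule was 689 and 681 CPM in control LECs and 480 to 614 CPM in mutant LECs. Reads were summed per mouse and class (at least 5 cells) and tested with the quasi-likelihood F test of edgeR 4.0.16 in R 4.3.3, after TMM scaling and filterByExpr (SE from the fold change and F), with mouse as a block for contrasts within mice, and Benjamini-Hochberg adjustment over all genes tested. CPM printed are of plain sums. Alternatives were DESeq2 1.42.0, its size factors in edgeR, no filter, each mouse left out, replicate number or plate series as a block, first plates, thinned cells, other limits for *Gja5* and *Cldn11*, and sums without cells of both marker sums, arterial, valve or cycling cells. Leaving out cells with other cells' markers and the capillary and venous split were added after the data were seen. Cells were thinned with a fixed seed in Python 3.11.15. Fits were tested on simulated data. All 10 members are named throughout, and of the other pathway genes at most 4 called per direction. The members and lists were chosen with earlier results of these data known. P-values measure the spread between these mice, and the 2 controls differ in breeding line and treatment.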

Additional observations from a re-analysis of the deposited data

Results flagged for a closer look

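In 3 of 40 groups of 5 mutant mice (10 genes in 4 cell classes) 1 mouse stood apart from the other 4 by Dixon's criterion, which chance meets in about 1 of 20 groups. In BECs *Jag1* reached 92.2 CPM in mutant 5, whereas the next mutant had 51.8 CPM and the lowest 37.9 CPM. In LECs *Jag2* was at 13.6 CPM in mutant 2, whereas the next lowest mutant had 25.0 CPM and the highest 28.7 CPM. In valve LECs *Hey2* was at 5.17 CPM in mutant 3, all from 1 cell, and at most 0.162 CPM in the other mutants.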

How the results depend on the processing

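Over the 10 genes and 9 comparisons, 88 results had 1509 alternatives. Of these, 1447 kept direction and side of the threshold, 51 lost the call, 11 gained it and none called the opposite direction, while 137 had the other sign without a call in either setting. In BECs of mutant against control mice, the 1 called member became 3 with DESeq2 (*Dll4*, *Dll1*, *Hey1*), and 0 with replicate number as a block, with plate series as a block, with thinned cells, without arterial BECs, and in capillary-led or venous-led BECs alone. Leaving out 1 mouse gave 0 to 1. In LECs the 1 became 3 with DESeq2 (*Hes1*, *Dll1*, *Hey2*), and 0 with replicate number as a block, plate series as a block, thinned cells, without cells that passed both marker sums and without cycling cells. Leaving out 1 mouse gave 0 to 1. For arterial against other BECs the 5 became 8 with DESeq2 and 1 with *Gja5* from 20 CPM, and 3 to 5 with 1 mouse left out (3 without mutant 3). For LECs against BECs the 7 became 4 without cells that held markers of other cell types. The difference of the mutant effect between BECs and LECs gained 1 call with DESeq2 (*Hey2*). The share of valve LECs, 3.59 percentage points higher in mutants, became -2.37 without cells that passed both marker sums (exact two-sided permutation p = 0.762). Causes were not tested.

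The labels give the control and mutant mice replicate numbers 1 and 2, but mice with the same number did not deviate together (correlations of -0.041 to 0.093), so they share only a number. With replicate number as a replicate block, *Dll4* in BECs stood at -1.40 (edgeR adjusted p = 0.236) and *Hes1* in LECs at -1.12 (edgeR adjusted p = 0.308), and of all genes edgeR called 0 in BECs and 3 in LECs. Over all genes, the 410 calls in BECs became 159 to 586 with 1 mouse left out (fewest without mutant 3), 2238 with DESeq2, 54 with plate series as a block, 762 without cells that held markers of other cell types and 3 in capillary-led and 416 in venous-led BECs. The 546 in LECs became 153 to 546 (fewest without mutant 3), 2490 with DESeq2, 178 with plate series as a block and 93 without cycling cells. Arterial BECs gained 11 calls without the filter or with the replicate block and 1 without control 2, and valve LECs 31 with *Cldn11* from 100 CPM. The 340 for arterial against other BECs became 154 to 242, 2660 with DESeq2, 219 with thinned cells, 193 without cells that held markers of other cell types and 66 with *Gja5* from 20 CPM. The 221 for valve against other LECs became 106 to 211, 1814 with DESeq2, 145 with no replicate block, 57 without cells that passed both marker sums and 504 with *Cldn11* from 600 CPM. The 42 for the difference between BECs and LECs became 0 to 21, 1253 with DESeq2, 22 without cells that passed both marker sums and 206 without cells that held markers of other cell types. The 2 for the difference between arterial and other BECs became 261 with DESeq2 and 0 to 4 elsewhere. Depth limits arterial BECs most, with 8 and 9 cells in mutants 2 and 1.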

Other observations

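The 117 cells of neither class (3 to 29 per mouse) also held reads of the members. In them *Hes1* ranged from 67.0 to 267 CPM over the 7 mice, *Notch1* from 280 to 643 CPM and *Jag1* from 48.9 to 163 CPM. *Jag1* there lay over the BECs of the same mouse in each of 7 mice. *Dll4* ranged from 0 to 259 CPM and *Dtx1* from 1.81 to 116 CPM, with the highest *Dtx1* value in the 7 cells of mutant 1. *Notch4* reached 248 CPM in mutant 4 and was at 0 in mutant 2, where only 3 cells and 551900 reads were held and 3 reads would be 5.44 CPM. Keratinocyte markers summed to 4325 to 8681 CPM in these cells in 5 of the mice and to 5.78 and 70.7 CPM in mutants 1 and 2. No test was made on these cells.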
